A study of Mus musculus with 18 samples.

Results

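Gene expression in the hippocampus and the heart of wild type mice was compared on 6 of the 18 arrays of a study of mice that carry TN-XXL, a genetically encoded fluorescent calcium indicator. The compared arrays were the 3 titled wt hippocampus and the 3 titled wt heart, and they were taken by title alone, with no measured value. All animals were labelled C57BL/6, and the wild type mice were littermates of transgenic mice. The transgenic mice are titled +/+, and their 3 hippocampus and 3 heart arrays were used as a separate set for the same tissue contrast. Age, sex, the hour of tissue collection, the number of animals and the promoter that drives the transgene are not stated in the labels. Total RNA had been extracted from whole tissue with a spin column kit (RNeasy Midi), labelled with biotin by a whole-transcript protocol and hybridised to Affymetrix arrays. The labels number the arrays of a group without tying each to its own animal, so the p-values reflect the spread among these arrays, part of which may be technical.

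The heart consists mainly, by volume, of cardiomyocytes, striated muscle cells in which actin and myosin filaments slide when calcium leaves the sarcoplasmic reticulum, and which obtain most of their ATP by oxidising fatty acids. The hippocampus is a cortical structure in which glutamatergic principal neurons of the CA fields and dentate gyrus lie among GABAergic interneurons, astrocytes, oligodendrocytes and microglia. Neurons rely on glucose and on lactate from glia, and they express a large set of genes for synapses that muscle does not use. In RNA from whole tissue, more cells of a type and more RNA of a gene per cell cannot be told apart, which applies to every difference below.

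The deposited log2 signals were not on the same footing in both tissues. Medians of the 6 arrays were 2.61 to 2.63 in heart and 3.70 to 3.71 in hippocampus, and the 25th percentiles were 1.79 to 1.84 and 2.35 to 2.39, whereas the brightest probe sets reached about the same signal. As deposited, the median probe set was therefore 0.61 log2 units higher in hippocampus. The 6 arrays were quantile normalized together, which gives each array the same distribution of signals, and all levels below are on that log2 scale unless another is named. On it the median difference was -0.08 over all probe sets. A difference is hippocampus minus heart, or its size where the higher tissue is named, given with the standard error (SE) of the fit and n = 3 arrays per tissue. With the values as deposited, arrays of the same tissue correlated at 0.985 to 0.989 across probe sets, and arrays of different tissues at 0.780 to 0.781. Genes at or under 3.16, the median signal, are called dim here, because RMA values give no detection call. A fold change against a dim signal is a ratio of signals that include background.

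A probe set was called when limma's treat test placed its difference beyond 2-fold, at an adjusted p under 0.05 (Benjamini-Hochberg, across the 35382 probe sets of the array). Of these, 6173 were called (17.4%), 3147 higher in hippocampus (8.89%) and 3026 higher in heart (8.55%). With 1 probe set for each of 18781 genes, the one with the highest mean, 4725 genes were called (25.2%), 2427 higher in hippocampus (12.9%) and 2298 higher in heart (12.2%). The 3 arrays of each tissue did not overlap at 57.9% of all probe sets. The split between the tissues depended on the scaling. Hippocampus held 51.0% of the calls after quantile normalization, 47.2% with arrays centred on their median, 46.8% with arrays centred on their 75th percentile, 73.9% with arrays centred on reference genes and 83.5% with the values as deposited. Each of the 6173 called probe sets kept its direction under these scalings and under quantile normalization of all 18 arrays, and 2874 were called under all 6 as higher in hippocampus (8.12%) and 1386 as higher in heart (3.92%). A gene is written below as higher in a tissue when it was called after quantile normalization. Calls that did not hold under all 6 scalings are marked at the gene or counted for its list.

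**Figure D1:**
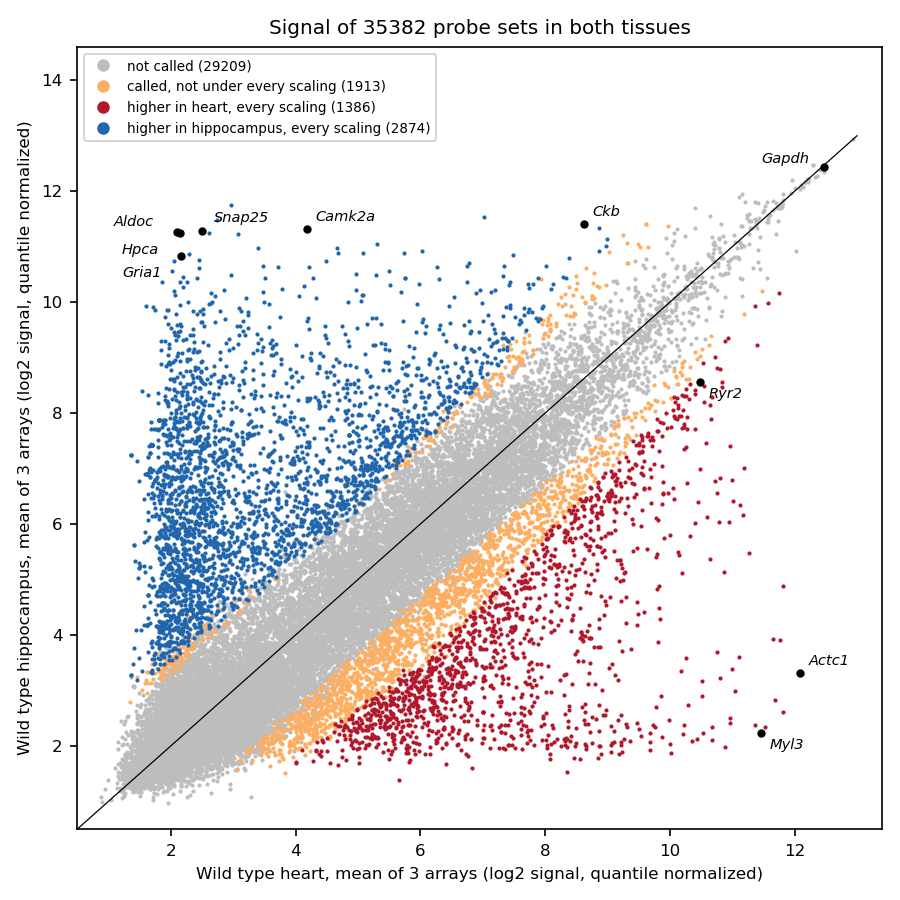
Mean log2 signal of each probe set in wild type hippocampus (y axis) against wild type heart (x axis), quantile normalized, 3 arrays per tissue, with the line of equality. Blue and red points are the 2874 and 1386 probe sets called under all 6 scalings, orange points are called after quantile normalization but not under every scaling, and labelled black points are genes described in the text, with Gapdh on the line near the upper end.

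Genes of the contractile apparatus were among the largest differences in the direction of heart, beside genes of oxygen storage and energy metabolism. Myl3, the ventricular and slow essential myosin light chain, had signals of 11.46, 11.45 and 11.46 in the heart arrays and 2.37, 2.21 and 2.14 in the hippocampus arrays. This is a difference of 9.22 ± 0.09 (SE), a 596-fold ratio with an adjusted p of 6.46e-08, and the hippocampal signals were dim on all 3 arrays. Mb, which encodes the oxygen store myoglobin, stood at 11.86, 11.73 and 11.86 in heart and at 2.58, 2.58 and 2.68 in hippocampus, a difference of 9.21 ± 0.08. Actc1, the actin of the cardiac sarcomere, stood at 12.09, 12.09 and 12.09 in heart and at 3.33, 3.51 and 3.10 in hippocampus, where 1 array was dim and the others just above the limit. Tnni3, the cardiac troponin I that is used as a marker of heart muscle, stood at 11.72, 11.69 and 11.67 and 2.77, 2.81 and 2.93. In each of these genes the heart arrays lay close together and far above all hippocampus arrays.

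The other genes among the 15 largest differences towards heart were Mybpc3 (9.0), Myl2 (8.90), Myoz2 (8.56), Cox8b (8.56), Ckm (8.47), Ttn (8.34), Hspb7 (8.299), Popdc2 (8.298), Myom2 (8.26), Ankrd1 (8.13) and Des (8.06). They include thick filament, Z-disc and M-band proteins of the sarcomere and titin (Mybpc3, Myl2, Myoz2, Myom2, Ttn) and the muscle intermediate filament desmin (Des). The muscle creatine kinase (Ckm) and the muscle isoform of a cytochrome c oxidase subunit (Cox8b) are also among them. Adjusted p-values of the 15 ranged from 6.46e-08 to 2.91e-07, and in the transgenic arrays the same differences were 7.96 (Des) to 9.31 (Mb). Of 24 measured genes in a list of cardiac and slow sarcomere genes, 23 were called higher in heart and 1 higher in hippocampus, with a list median of 7.80 towards heart. Over all 18781 genes the median was -0.06, and 12.2% were called higher in heart. All 24 calls held under all 6 scalings, as did calls towards heart for 5.67% and towards hippocampus for 11.9% of all genes. Tnnt2, cardiac troponin T, differed by 7.85 ± 0.17. Nebl, which encodes the Z-disc protein nebulette and, from other transcripts, a cytoskeletal adaptor of non-muscle cells, was the exception. Its brighter probe set read 6.24, 6.07 and 6.09 in heart and 8.55, 8.47 and 8.58 in hippocampus, while its other probe set, at -2.66, was called higher in heart, so the probe sets of this gene disagree.

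**Figure D2:**
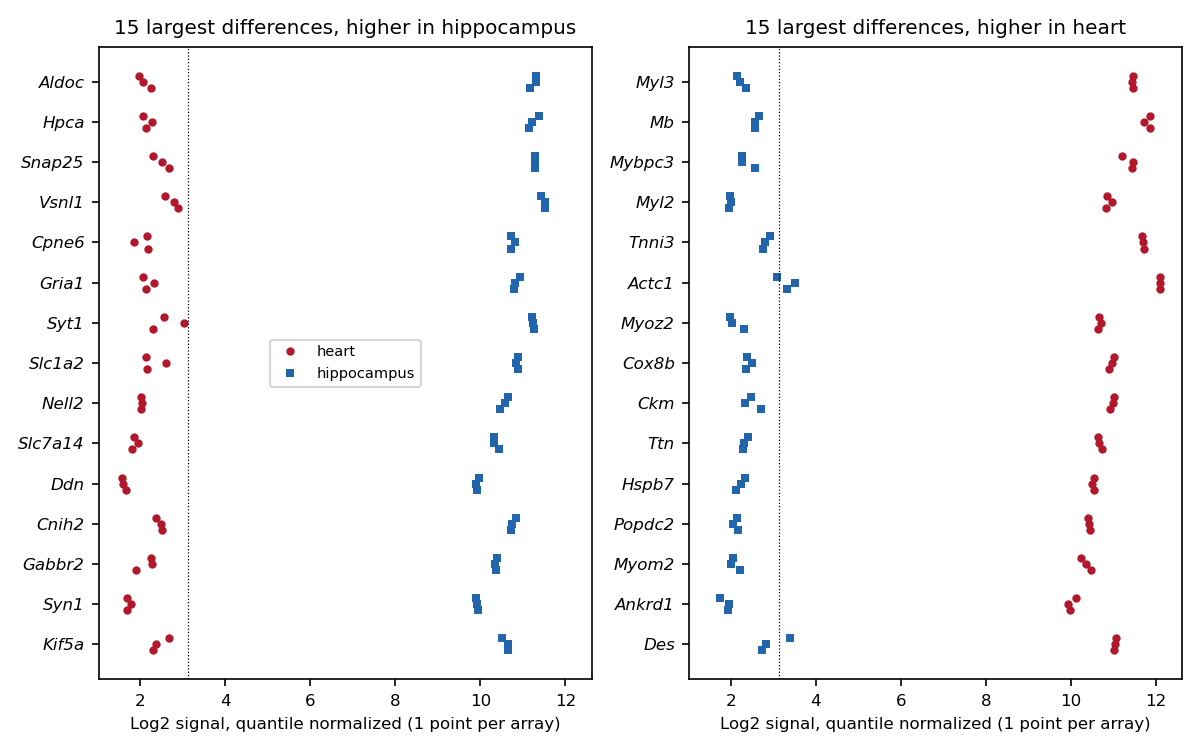
Log2 signal on each array, quantile normalized, for the 15 genes with the largest difference towards hippocampus (left) and towards heart (right), 1 probe set per gene. Red circles are the 3 heart arrays, blue squares the 3 hippocampus arrays, and the dotted line is the median signal of 3.16. No heart and hippocampus arrays overlap for these genes, and nearly all signals of the lower tissue lie left of the line.

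Genes that release, bind and pump calcium in the cardiomyocyte followed the sarcomere less uniformly. Of 15 measured genes of excitation-contraction coupling, 11 were higher in heart, 1 was higher in hippocampus and 3 were not called, with a list median of 1.93 towards heart, and 8 of the 11 calls towards heart held under all 6 scalings (not Asph, Cacna1c and Slc8a1). Pln, phospholamban, the inhibitor of the sarcoplasmic calcium pump, read 11.62, 11.73 and 11.59 in heart and 3.89, 4.07 and 3.84 in hippocampus, a 210.1-fold ratio. Casq2, the calcium store protein calsequestrin, differed by 7.08, and Hrc, a histidine-rich calcium-binding protein of the same store, by 6.701. Other members differed less. Ryr2, the calcium release channel of heart, read 10.54, 10.45 and 10.49 in heart and 8.51, 8.60 and 8.59 in hippocampus. It was 3.8-fold higher in heart (1.93 ± 0.08, adjusted p = 7.71e-05), so this heart marker was well above the median signal in both tissues. Atp2a2, the pump that refills the store, read 11.50, 11.60 and 11.53 in heart and 10.48, 10.43 and 10.38 in hippocampus and was not called (adjusted p = 0.452 against a 2-fold difference). Fkbp1b, an accessory subunit of the release channel, ran the other way, with 2.42, 2.57 and 2.24 in heart and 5.17, 5.48 and 5.48 in hippocampus.

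Cardiac transcription factors were higher in heart for 11 of 14 measured genes, with a median of 5.23, and 10 of the calls held under all 6 scalings (not Prdm16). Tbx20, Gata6, Gata4 and Nkx2-5, which direct heart formation, differed by 7.05, 6.69, 6.25 and 5.75, and all 4 were dim in hippocampus. Smyd1, a muscle methyltransferase needed for myofibril assembly, and Myocd, the SRF coactivator myocardin, differed by 7.44 and 6.302. The members that were not called were Mef2a, Mef2c and Hand1. Mef2c, a factor of both muscle and neurons, stood at 7.73, 7.47 and 7.54 in heart and 8.29, 7.85 and 7.74 in hippocampus, and Hand1 was dim in both tissues. Of 18 cardiac ion channel and conduction genes, 13 were higher in heart, 7 of them under all 6 scalings. Popdc2, a cyclic AMP-binding membrane protein of pacemaker tissue, differed by 8.298, and the potassium channel genes Kcnj5, Kcnq1 and Kcnj8 by 5.46, 4.62 and 3.95. Kcnd2, a channel of the transient outward potassium current in both ventricle and dendrites, was the only called member towards hippocampus (2.03). All 10 measured genes of desmosomes and intercalated discs were higher in heart, 7 of them under all 6 scalings. Xirp2 and Xirp1, actin-binding proteins of the disc, led with 7.33 and 6.46.

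Some genes of the atria varied among the heart arrays. Myl7, the atrial regulatory light chain, read 5.09, 7.26 and 7.17 in heart and 2.17, 2.16 and 2.08 in hippocampus. Myl4, the atrial essential light chain, read 7.09, 8.88 and 8.79 and 4.18, 4.35 and 4.28. Heart array 1 was thus lower than the other heart arrays in both genes, and without it the differences were 5.11 for Myl7 and 4.51 for Myl4, against 4.37 and 3.99 with all arrays. Nppa, the atrial natriuretic peptide, read 9.72, 9.98 and 9.92 in heart and 2.13, 2.20 and 2.16 in hippocampus and did not show this split. Sln, sarcolipin, was at 2.02, 3.35 and 2.55 in heart and was not called. How much atrium each heart sample held is not given in the labels, and its part in these values was not tested. Of 12 measured atrial and natriuretic peptide genes, 5 were higher in heart and 2 in hippocampus, all under all 6 scalings. The latter were Dkk3 (4.87) and Fgf12 (4.38), which the brain also expresses. Among all genes, 12.2% were called higher in heart and 12.9% higher in hippocampus.

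Promoters of the genes with the largest differences were read from a RefSeq table (GRCm38.p6) that holds 250 bases upstream of annotated starts, and 14723 measured genes had an entry. Genes at least 5 log2 units higher in heart numbered 150, of which 114 had an entry, and those at least 5 units higher in hippocampus numbered 378, of which 300 had one. The strict 10-base MEF2 site, bound by MEF2 factors of muscle and neurons, occurred on either strand upstream of 20.2% of the 114 heart genes, of 2.00% of the 300 hippocampus genes and of 2.91% of all 14723. The CArG box, bound by serum response factor, occurred upstream of 6.14%, 0.667% and 1.47%, and the GATA sequence AGATAA upstream of 17.5%, 6.67% and 9.86%. The TATA sequence TATAAA, searched only 5′ to 3′ along the gene and not on the opposite strand, was present in 13.2%, 2.67% and 8.20%. The nuclear receptor element TCAAGGTCA, on either strand, was upstream of 0.326% of all measured genes and of 0 of the 114 heart genes. The median GC content of these windows was 53.9% for the heart genes, 60.0% for the hippocampus genes and 56.8% for all, and how base composition bears on these shares was not tested. A gene was counted when any of its windows matched. Windows per gene averaged 1.25 for the heart genes, 1.44 for the hippocampus genes and 1.23 for all, and the effect of this on the shares was not tested. A match gives the letters in this window and says nothing on binding. The following stretches are shown because they belong to genes with some of the largest differences towards heart and hold a MEF2 site or a CArG box, in capitals, with up to 50 bases on each side, written 5′ to 3′ along the gene. The Myoz2 stretch is chr3:123034988-123035070 (minus strand), that of Mybpc3 chr2:91118004-91118113 (plus), that of Ttn chr2:76982654-76982763 (minus), that of Myl3 chr9:110763543-110763652 (plus) and that of Actc1 chr2:114052876-114052972 (minus).
Myoz2, MEF2 site: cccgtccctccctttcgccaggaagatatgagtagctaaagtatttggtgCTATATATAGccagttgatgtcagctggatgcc
Mybpc3, MEF2 site: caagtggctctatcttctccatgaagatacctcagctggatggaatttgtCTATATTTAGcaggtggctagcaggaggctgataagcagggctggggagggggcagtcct
Ttn, MEF2 site: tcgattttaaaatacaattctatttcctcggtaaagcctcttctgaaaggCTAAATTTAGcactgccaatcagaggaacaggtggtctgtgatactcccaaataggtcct
Myl3, CArG box: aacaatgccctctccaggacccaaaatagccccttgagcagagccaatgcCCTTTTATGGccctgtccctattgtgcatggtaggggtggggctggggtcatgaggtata
Actc1, CArG box: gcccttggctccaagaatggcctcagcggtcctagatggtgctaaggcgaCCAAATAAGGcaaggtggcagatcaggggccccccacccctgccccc

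The site began 33 bases before the annotated start in Myoz2, 90 in Mybpc3, 166 in Ttn, 85 in Myl3 and 47 in Actc1. The 23 genes at least 5 units higher in heart with a MEF2 site upstream also included the calcium store gene Casq2, the glycolytic gene Pgam2 and the disc gene Xirp2. The 7 with a CArG box also included the Z-disc genes Ldb3 and Fhl2 and the M-band gene Myom1.

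Genes of fatty acid uptake and oxidation were higher in heart without exception among the 25 measured members, with a median of 4.36, and 23 of the calls held under all 6 scalings. Cd36, the fatty acid transporter of the cell surface, read 10.26, 10.23 and 10.18 in heart and 2.21, 2.59 and 2.36 in hippocampus, a 229-fold ratio. Lpl, which frees fatty acids from blood lipoproteins, differed by 5.74, Cpt2, which hands them to the mitochondrial matrix, by 5.52, and Acads and Etfa, of beta-oxidation and of the electron transfer from it, by 5.29 and 5.11. Fabp4, a fatty acid-binding protein of capillary endothelium and fat cells, differed by 7.07. The heart arrays lay above the hippocampus arrays for each of these genes.

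The shared mitochondrial pathways differed by less. Of 19 measured genes of the tricarboxylic acid cycle, 14 were higher in heart with a median of 2.06 over the list, 12 of them under all 6 scalings. Idh2, the NADP-dependent isocitrate dehydrogenase, stood out with 11.12, 11.11 and 11.12 in heart and 6.36, 6.24 and 6.42 in hippocampus. Got1 and Got2, aminotransferases of the malate-aspartate shuttle that neurons also use, were not called (0.48 and 0.69 towards heart). Complex I subunits were higher in heart for 20 of 22 genes (median 2.03), and subunits of complexes III to V for 17 of 21 (median 1.95), 16 and 14 of them under all 6 scalings. Ndufs6 of complex I differed by 3.16 and Uqcrfs1, the Rieske protein of complex III, by 3.38, whereas Atp5b and Atp5d of the ATP synthase differed by 0.27 and 0.28 and were not called. Genes of branched-chain amino acid and ketone body use were higher in heart for 16 of 18 members, 9 under all 6 scalings. The pair of branched-chain aminotransferases divided between the tissues. Bcat2, the mitochondrial enzyme, was 3.16 higher in heart, and Bcat1, the cytosolic enzyme, read 2.75, 2.72 and 2.85 in heart and 7.52, 7.50 and 7.46 in hippocampus.

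Glycolysis had no common direction. Of 20 measured genes, 5 were higher in hippocampus (3 under all 6 scalings), 6 in heart (5 under all 6) and 9 were not called, and the list median was 0.03. The shares over all genes were 12.9% towards hippocampus and 12.2% towards heart. Slc2a1, Pgam1 and Pfkm were the calls that did not hold. Gapdh was 12.47, 12.47 and 12.47 in heart and 12.43, 12.43 and 12.43 in hippocampus, near the ceiling of the array. Several called members have a relative known from another tissue, and pairs were drawn up of a form known from striated muscle and a relative with the same or a similar function, and 24 of 32 had both genes measured. The muscle form was higher in heart in 19 pairs and not called in 5. The other form was higher in hippocampus in 14, higher in heart in 2 and not called in 8, and in 10 pairs both forms were called in opposite directions.

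The enolases showed this most fully. Eno3, the muscle enolase, read 10.50, 10.49 and 10.54 in heart and 3.01, 3.27 and 3.24 in hippocampus, and Eno2, the neuronal enolase, read 2.95, 2.76 and 2.41 in heart and 10.04, 10.08 and 10.21 in hippocampus. Their differences were 7.34 towards heart and 7.404 towards hippocampus. The mitochondrial creatine kinases Ckmt2 and Ckmt1 parted by 7.999 and 5.60, the cytosolic creatine kinases Ckm and Ckb by 8.47 and 2.79, and the glucose transporters Slc2a4, which insulin moves to the surface, and Slc2a3, the neuronal carrier, by 7.61 and 5.13. The remaining pairs called in opposite directions were Fabp3 and Fabp7 (fatty acid-binding proteins, 4.60 and 4.97), Pgam2 and Pgam1 (phosphoglycerate mutases, 5.39 and 1.83, the latter not under all 6 scalings), Ryr2 and Ryr3 (calcium release channels, 1.93 and 4.76), Slc8a1 and Slc8a2 (sodium-calcium exchangers, 1.48, not under all 6 scalings, and 5.61), Cacna1c and Cacna1e (calcium channel pores, 1.35, not under all 6, and 6.67) and Camk2d and Camk2a (calmodulin kinase II, 2.26, not under all 6, and 7.13). The call of Cacna1c did not hold without either of 2 heart arrays (adjusted p = 0.0508 without array 1 and 0.0544 without array 3).

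In further pairs a single side was called. Aldoc, the aldolase of astrocytes, read 2.24, 2.07 and 1.97 in heart and 11.16, 11.31 and 11.30 in hippocampus, the largest difference towards hippocampus of all named genes, while the muscle aldolase Aldoa read 11.36, 11.42 and 11.37 and 11.47, 11.47 and 11.40 and was not called. Atp2b2, Prkar1b and Rbfox3, the neuronal members of the plasma membrane calcium pumps, protein kinase A regulatory subunits and RBFOX splicing factors, were 6.82, 6.46 and 6.38 higher in hippocampus, and their relatives Atp2b4, Prkar1a and Rbfox2 were not called. On the heart side, Cox8b (8.56), Cox6a2 (7.06), Actc1 (8.78), Hk2 (5.66), Slc25a4 (2.16), Ldhb (2.06) and Pfkm (1.36, not under all 6 scalings) were called, and Cox8a, Cox6a1, Actb, Hk1, Slc25a5, Ldha and Pfkp were not. In the lactate dehydrogenase pair, Ldhb, the heart subunit, was counted as the muscle form, although Ldha is the subunit named for muscle. Pygb, the brain glycogen phosphorylase, was 1.297 higher in heart, as was the muscle enzyme Pygm by 4.75, and Cox7a2 and Cox7a1 were likewise 1.83 and 7.62 higher in heart. The calls of Pygb and Cox7a2 did not hold under all 6 scalings. The call of Pygb was lost when an array was left out (adjusted p of up to 0.111). Neither Atp2a2 nor Atp2a3 was called.

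**Figure D3:**
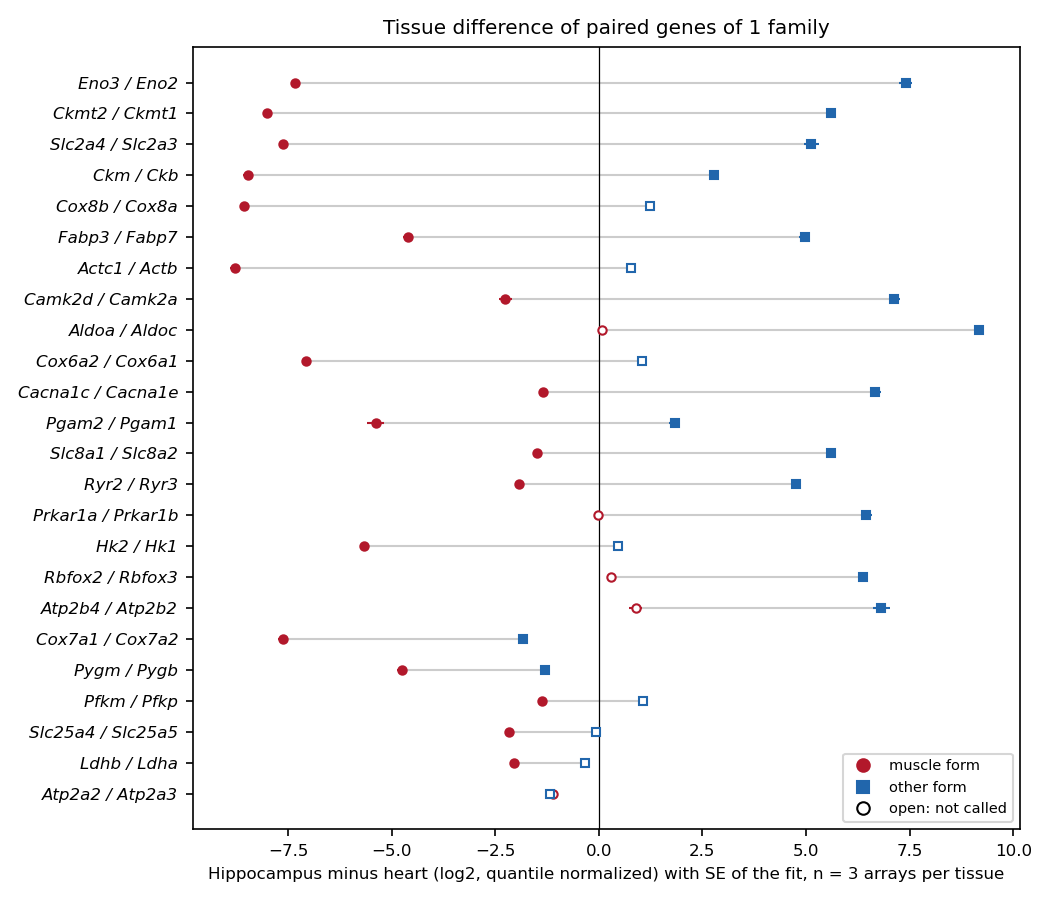
Difference between hippocampus and heart (x axis, log2, quantile normalized, n = 3 arrays per tissue, bars give the SE of the fit) for 24 pairs of related genes. Red circles mark the form known from striated muscle and blue squares its relative, open symbols were not called, and pairs are ordered by the distance between both forms, from 14.74 log2 units for Eno3 and Eno2 at the top to Atp2a2 and Atp2a3 at the bottom.

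After Aldoc, the largest differences in the direction of hippocampus included genes of neuronal calcium sensing and of the synapse, as well as transporters and a kinesin. Hpca, hippocalcin, a calcium sensor of principal neurons, read 2.12, 2.28 and 2.05 in heart and 11.14, 11.22 and 11.37 in hippocampus, a 546-fold ratio (9.09 ± 0.10, adjusted p = 6.46e-08). Snap25, a SNARE protein of vesicle fusion, read 2.68, 2.51 and 2.29 and 11.29, 11.29 and 11.29, and Gria1, a subunit of AMPA glutamate receptors, read 2.12, 2.31 and 2.05 and 10.78, 10.81 and 10.92. The heart arrays were dim for each of these genes. The others of the 15 were Vsnl1 (8.75), Cpne6 (8.69), Syt1 (8.62), Slc1a2 (8.57), Nell2 (8.54), Slc7a14 (8.496), Ddn (8.33), Cnih2 (8.32), Gabbr2 (8.23), Syn1 (8.21) and Kif5a (8.16). Vsnl1 is a relative of hippocalcin, Syt1 the calcium sensor of transmitter release, Slc1a2 the main glutamate transporter of astrocytes, Cnih2 an auxiliary subunit of AMPA receptors, Gabbr2 a subunit of the metabotropic GABA receptor and Kif5a a neuronal kinesin. Adjusted p-values of the 15 ran from 6.46e-08 to 2.7e-07.

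Synaptic genes were higher in hippocampus almost throughout. All 20 measured genes of vesicles and their release were called, with a median of 5.77, as were all 11 GABA receptor subunits (median 5.55), 19 of 20 glutamate receptor subunits (median 5.10) and 16 of 18 genes of the postsynaptic density (median 5.64), and all these calls held under all 6 scalings. Among the glutamate receptors, Grm5, Grin2b, Grin2a and Gria2 followed Gria1 with 7.71, 7.46, 7.36 and 7.27. Grin2d, an NMDA receptor subunit of interneurons, was not called (1.28). Among the GABA receptors, Gabra5, the alpha subunit known for its abundance in hippocampus, differed by 7.28, and Gabrb1 and Gabra2 by 6.93 and 6.87. In the release machinery Syn1, Cplx1 and Sv2b differed by 8.21, 7.38 and 7.27, and Slc17a7, the vesicular glutamate transporter of principal neurons, read 5.34, 5.40 and 5.16 in heart and 10.98, 11.07 and 11.12 in hippocampus. In the postsynaptic density Camk2a, the alpha subunit of calmodulin kinase II, read 4.06, 4.46 and 4.03 and 11.27, 11.40 and 11.28, and Dlg2 and Nrxn3 differed by 6.92 and 6.896. Shank3 and Homer1, scaffold proteins of the same structure, were not called (0.51 and 0.55), and both stood at 6.25 or above in heart. Of 17 genes of the neuronal cytoskeleton and RNA-binding proteins, 16 were higher in hippocampus, each under all 6 scalings, led by Stmn3 and Nefl (8.14 and 8.14). Mapt, which encodes tau, was not called, with 5.63, 5.67 and 5.64 in heart and 6.91, 6.99 and 6.75 in hippocampus.

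Upstream of Syn1, the synapsin gene, the RefSeq window held the cyclic AMP response element TGACGTCA, which is shown because Syn1 was among the 15 genes above. The stretch is chrX:20921020-20921127 (minus strand) of GRCm38.p6, with the element in capitals, beginning 159 bases before the annotated start.
Syn1, cyclic AMP response element: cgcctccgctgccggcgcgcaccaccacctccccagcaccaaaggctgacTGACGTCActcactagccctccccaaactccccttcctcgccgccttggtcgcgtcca

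The element, searched on either strand, was upstream of 3.33% of the 300 genes at least 5 units higher in hippocampus, of 0 of the 114 at least 5 units higher in heart, and of 2.39% of all measured genes. These sets had on average 1.44, 1.25 and 1.23 windows per gene, and a match in any window counted. The core of the RE1 sequence, searched on either strand, which the repressor REST binds in neuronal genes, was upstream of 10 of the 14723 genes. Of these, Dner (6.09), Fam163b (5.18), Hrh3 (4.17), Sptbn4 (3.77) and Fbll1 (2.51) were higher in hippocampus, and Ogdhl (-1.53) was higher in heart, not under all 6 scalings. Lca5, Lhx3, Osbp2 and Tppp2 were not called. Of all 18781 genes, with or without such a window, 12.9% were called higher in hippocampus. Among the 14723 with a window, 1716 were called higher in hippocampus under all 6 scalings, and 5 of these held the RE1 core.

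Markers of hippocampal principal neurons and their subfields were higher in hippocampus for 17 of 22 measured genes (median 3.96), each under all 6 scalings. Nptx1, a pentraxin that clusters glutamate receptors, differed by 7.49, and Neurod6 and Tbr1, transcription factors of excitatory cortical neurons, by 5.02 and 5.14. Grik4, a kainate receptor subunit known from CA3, differed by 5.83. Several genes used to mark subfields within the hippocampus were not called. Prox1, the dentate granule cell factor, which lymphatic endothelium and cardiomyocytes also express, read 7.99, 7.93 and 7.91 in heart and 7.54, 7.71 and 7.71 in hippocampus. Wfs1, a CA1 marker, stood at 8.69, 8.52 and 8.66 and 8.61, 8.53 and 8.18, and Man1a and Zbtb20 were not called either (0.31 and 0.61). Dsp, which marks dentate granule cells in brain and encodes the desmosomal protein desmoplakin, was 4.54 higher in heart.

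Of 18 interneuron and neuropeptide genes, 13 were higher in hippocampus, each under all 6 scalings, and 5 were not called. Sst and Cck, peptides of interneuron classes, differed by 7.53 and 7.41, and Gad1 and Gad2, the enzymes that make GABA, by 6.901 and 5.75. Vip, Penk, Crh, Tac1 and Lhx6 were not called, of which Vip and Crh were at or below 3.74 in either tissue. Astrocyte genes were higher in hippocampus for 14 of 17 members (median 3.66), 13 of them under all 6 scalings (not Slc4a4). Besides Aldoc and Slc1a2, Slc1a3, a second glutamate transporter, differed by 6.51 and Gfap, the astrocyte filament protein, by 5.28, with 2.32, 2.08 and 2.23 in heart and 7.43, 7.44 and 7.60 in hippocampus. Gja1, the gap junction protein connexin 43 of astrocytes and of ventricular muscle, was 1.57 higher in heart, and Ppp1r3c, a glycogen-targeting subunit, 1.75, neither under all 6 scalings. Glul, glutamine synthetase, was not called (1.11). Of 14 myelin and oligodendrocyte genes, 12 were higher in hippocampus (median 3.73), each under all 6 scalings, led by Cldn11 (6.46) and Mobp (5.34). Cspg4 and Pdgfra, which mark oligodendrocyte precursors and also pericytes and fibroblasts, were not called.

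**Figure D4:**
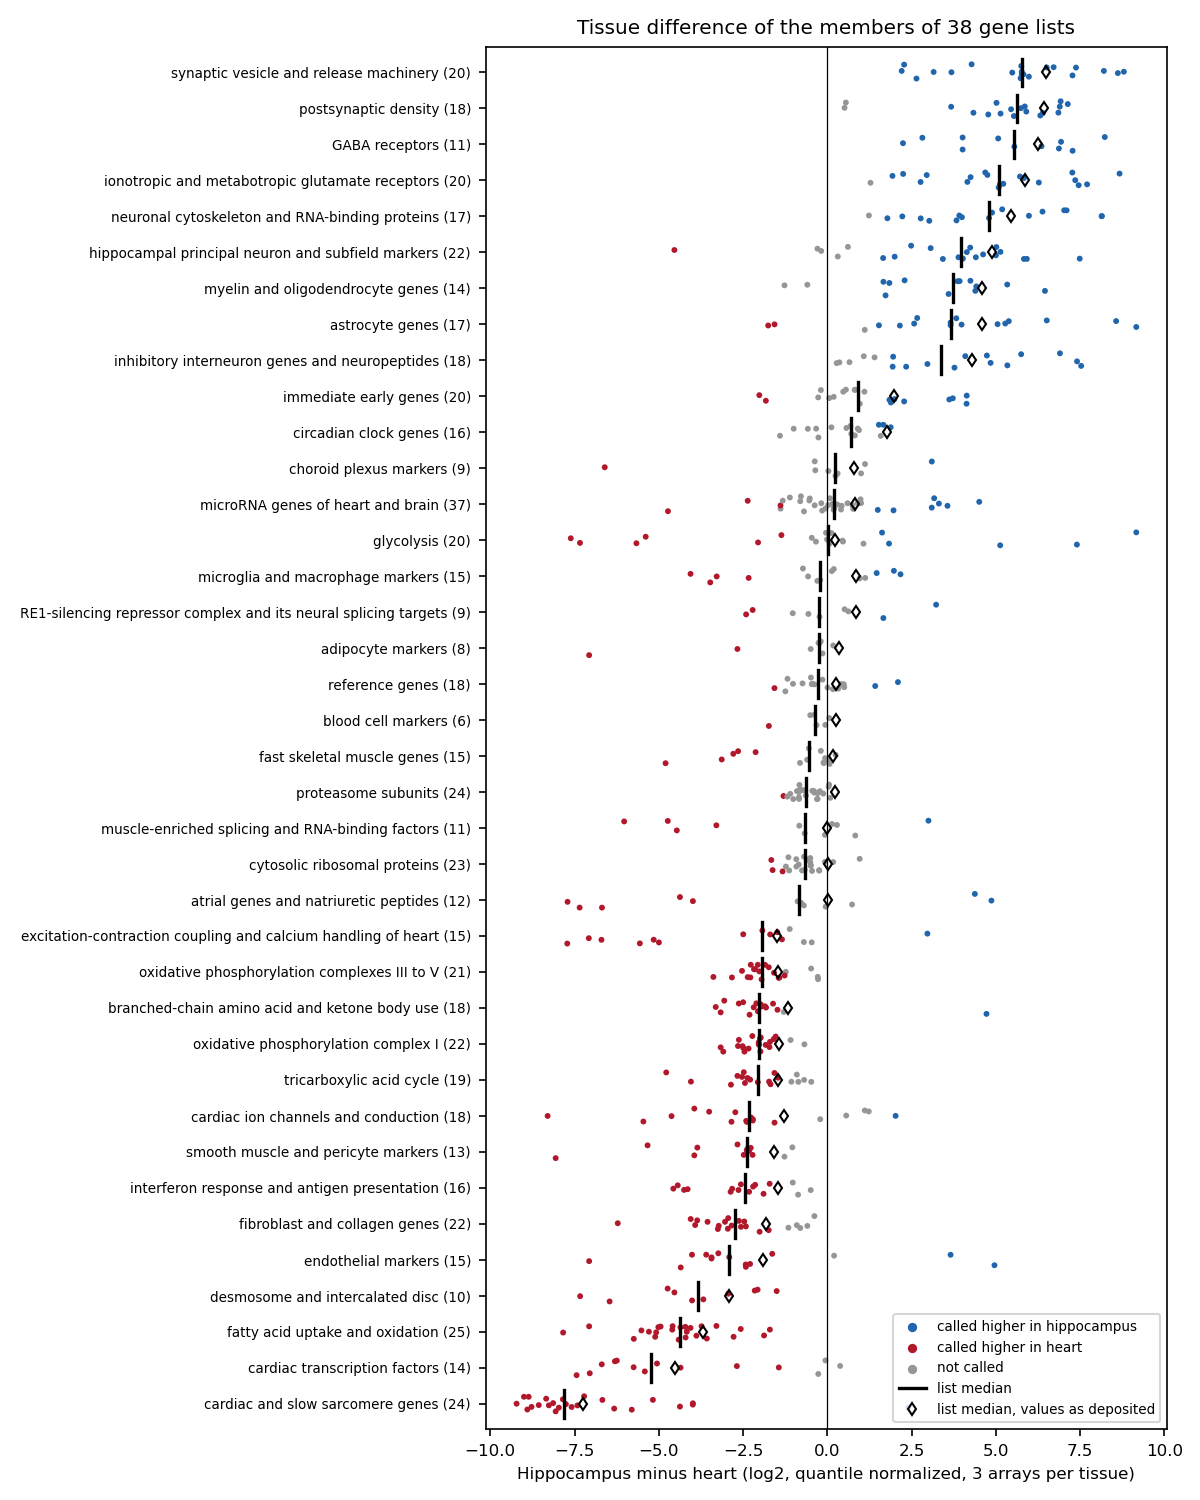
Difference between hippocampus and heart (x axis, log2, quantile normalized, 3 arrays per tissue) of each measured member of 38 gene lists, with the number of measured members in brackets. Points are genes, blue called higher in hippocampus, red called higher in heart and grey not called, the bar is the list median and the diamond the median of the values as deposited. Synaptic lists lie at the top, sarcomere and fatty acid lists at the bottom, and the diamonds lie to the right of the bars.

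Endothelial genes were higher in heart for 12 of 15 members (median 2.91), 10 of them under all 6 scalings (not Flt1 and Vwf). They included Cdh5, the cadherin of endothelial junctions (4.35), and Kdr, a VEGF receptor (4.02). The 2 members higher in hippocampus are known from the blood-brain barrier. Mfsd2a, a lipid transporter of brain endothelium, read 2.52, 2.43 and 2.15 in heart and 7.18, 7.13 and 7.66 in hippocampus, and Slco1a4, an organic anion transporter of brain capillaries, read 2.11, 1.74 and 2.42 and 5.80, 5.62 and 5.82. Cldn5, a tight junction protein, was not called, with 7.78, 7.57 and 7.82 in heart and 7.99, 8.01 and 7.79 in hippocampus. Smooth muscle and pericyte genes were higher in heart for 11 of 13 members (median 2.39), 8 of them under all 6 scalings (not Myh11, Tagln and Notch3). Among the 8 were Des and Kcnj8, which cardiomyocytes or other heart cells express as well, and Acta2 (2.48). Fibroblast and collagen genes were higher in heart for 17 of 22 members (median 2.73), 15 of them under all 6 scalings (not Col4a2 and Col6a1), led by Dpt, dermatopontin (6.22), and Postn, periostin (4.05).

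Of 15 measured microglia and macrophage markers, 3 were higher in hippocampus and 4 in heart, and 8 were not called. The shares over all genes were 12.9% and 12.2%, so counts this small do not set the list apart. F13a1, Mrc1 and Cd163, genes of tissue and border macrophages, were 4.06, 3.47 and 3.28 higher in heart, as was Adgre1 (2.33, not under all 6 scalings). Siglech, P2ry12 and Cx3cr1, genes of microglia, were 2.17, 1.98 and 1.46 higher in hippocampus. The call of Cx3cr1 was lost when any of 4 arrays was left out (adjusted p of up to 0.0616), and it was not called in the transgenic arrays. C1qa, C1qb, C1qc and Csf1r were among the members not called, and the list median was -0.21 after quantile normalization and 0.85 as deposited. Genes of interferon response and antigen presentation were higher in heart for 13 of 16 members (median 2.44), 9 of them under all 6 scalings (not Tap2, Psmb8, Psmb9 and Ifit1). The class II genes Cd74, H2-Eb1, H2-Aa and H2-Ab1 differed by 4.57, 4.44, 4.25 and 4.14 and were dim in hippocampus.

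The labelled tissues were checked against their defining markers. The heart markers Actc1, Tnni3, Tnnt2, Myl2, Mybpc3, Nppa, Ryr2 and Pln and the hippocampus markers Neurod6, Snap25, Gria1, Camk2a, Slc17a7 and Gfap were called in the direction of their tissue, and Prox1 was not called. Myh6, Grin1 and Mbp were not measured by a probe set with a single gene symbol. Markers of neighbouring tissues were mostly dim. Of 15 fast skeletal muscle genes, 9 were dim in both tissues, Myh4 and Mylpf included, and the mean signal over the list was 3.61 to 3.64 in heart and 2.32 to 2.62 in hippocampus. Acta1, an actin that heart expresses too, was 4.798 higher in heart, and Casq1, Myl1, Mybpc2 and Neb were also called, Mybpc2 and Neb not under all 6 scalings. Of 9 choroid plexus genes 6 were dim in both tissues, with a list mean of 2.89 to 2.92 in heart and 2.61 to 2.86 in hippocampus. Ttr, the most abundant transcript of choroid plexus, read 2.80, 2.60 and 4.02 in hippocampus. Kl was 3.10 higher in hippocampus, and Aqp1, an erythrocyte and endothelial water channel as well, 6.603 higher in heart. Of 8 adipocyte genes 5 were dim in both tissues, Adipoq and Plin1 included, with list means of 3.66 to 3.74 in heart and 2.28 to 2.39 in hippocampus. Fabp4 and Cidea were called higher in heart (7.07 and 2.67). Of 13 blood cell genes in the list, 6 were measured. Of these 5 were dim in both tissues, with list means of 2.58 to 2.80 in heart and 2.18 to 2.30 in hippocampus. Alas2, the heme enzyme of erythroid cells, was 1.73 higher in heart, not under all 6 scalings. Values of the haemoglobin genes are not given here, so the list does not show how much blood the samples held.

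The medians of lists of genes that most cells use changed sign with the scaling. Over all genes 25.2% were called, 12.9% higher in hippocampus and 12.2% higher in heart. The share of ribosomal protein genes called higher in heart was near that of all genes. Of 23 cytosolic ribosomal protein genes, 3 were called higher in heart (1 under all 6 scalings, not Rpl7 and Rps9) and 0 in hippocampus, and of 24 proteasome genes 1 was called higher in heart (Psmc3, not under all 6). The list medians were 0.67 and 0.65 towards heart after quantile normalization but 0.02 and 0.24 towards hippocampus as deposited, so no direction is given for either list. Of 18 reference genes 15 were not called, and their median was -0.26 after quantile normalization and 0.27 as deposited. Ywhaz, a 14-3-3 protein abundant in brain, was 2.096 higher in hippocampus and Sdha, a complex II subunit, 1.57 higher in heart. Ppia, a common reference in expression studies, was 1.42 higher in hippocampus, not under all 6 scalings. The medians of the microglia, fast skeletal muscle, atrial, adipocyte, blood cell and RE1 repressor lists also changed sign between quantile normalized and deposited values, and those of the glycolysis, choroid plexus and microRNA lists turned towards heart with arrays centred on their median. With arrays centred on reference genes, the glycolysis median also turned towards heart, and those of the microglia, adipocyte and RE1 repressor lists turned towards hippocampus.

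Of 11 measured muscle-enriched splicing and RNA-binding factors, 4 were higher in heart, 1 was higher in hippocampus and 6 were not called. Among all genes, 12.2% were called higher in heart and 12.9% higher in hippocampus. Rbm20, the splicing factor of titin, differed by 6.03 towards heart, and Rbpms, Rbpms2 and Rbm24, RNA-binding proteins of muscle, by 4.73, 4.47 and 3.29. Celf2 was 3.00 higher in hippocampus, and Mbnl1, Mbnl2, Celf1 and Rbfox2 were among those not called. Of 9 genes of the REST repressor complex and its neural splicing targets, 2 were higher in each tissue and 5 were not called. Beside the shares over all genes, counts this small do not set the list apart. Rest, the repressor of neuronal genes in other cells, read 5.51, 5.64 and 5.41 in heart and 2.98, 3.61 and 3.32 in hippocampus, a difference of 2.22 towards heart that was not called under all 6 scalings. Ctdsp1, a phosphatase of the REST complex, was 2.41 higher in heart. Srrm4, which activates neuronal microexons and acts on the Rest transcript, read 3.00, 3.05 and 3.06 in heart and 6.28, 6.30 and 6.21 in hippocampus, and Ptbp2, the neuronal polypyrimidine tract protein, was 1.66 higher in hippocampus. Its relative Ptbp1 and the corepressor genes Rcor1, Rcor2 and Sin3a were not called.

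Of 20 immediate early genes, 8 were higher in hippocampus, 2 in heart and 10 were not called. Arc, which links neuronal activity to AMPA receptor traffic, read 2.69, 3.36 and 2.81 in heart and 6.94, 7.19 and 7.12 in hippocampus, and Nr4a2, Nr4a3 and Egr3 differed by 4.14, 3.72 and 3.62. Dusp1, a phosphatase of MAP kinases, and Btg2 were 2.02 and 1.82 higher in heart, neither under all 6 scalings. Fos read 2.03, 2.49 and 2.47 in heart and 3.13, 3.24 and 3.12 in hippocampus and was not called. Of 16 circadian clock genes 3 were called, all higher in hippocampus, where 12.9% of all genes were called higher in hippocampus and 25.2% in either direction, so the count does not set the list apart. They were Hlf, an output factor of the clock (1.88), and the repressors Per2 (1.66) and Cry2 (1.53). None of these 3 was called in the transgenic arrays, where the differences were 0.65, -0.11 and 0.95.

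MicroRNA genes were measured at their hairpin loci, and the arrays do not measure mature arms. Of 37 measured microRNA genes of heart and brain, 7 were higher in hippocampus, 3 in heart and 27 were not called, and 22 were dim in both tissues. Over all genes 12.9% were called higher in hippocampus and 12.2% higher in heart, so these counts do not set microRNA genes apart. The mature sequences of the called genes other than Mir145a and Mir143 are shown because their seeds (bases 2 to 8, in capitals) decide which transcripts each could bind. Their hairpins lie on chromosome 14 (Mir208a), 12 (Mir134), 3 (Mir9-1 and Mir137), 13 (Mir9-2), 8 (Mir138-2), 1 (Mir128-1) and 5 (Mir218-1) in GRCm38.p6, and the sequences are those of RefSeq, whose table held 28 of the 37 genes.
Mir208a, mmu-miR-208a-3p: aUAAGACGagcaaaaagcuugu
Mir134, mmu-miR-134-5p: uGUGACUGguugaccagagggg
Mir9-1 and Mir9-2, mmu-miR-9-5p: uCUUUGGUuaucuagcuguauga
Mir138-2, mmu-miR-138-5p: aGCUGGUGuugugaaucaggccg
Mir128-1, mmu-miR-128-3p: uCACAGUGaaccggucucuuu
Mir218-1, mmu-miR-218-5p: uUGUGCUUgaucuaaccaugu
Mir137, mmu-miR-137-3p: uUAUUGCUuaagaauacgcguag

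The genes of miR-9 on different chromosomes share a mature sequence and hence a seed, and the other seeds differ from each other. Mir208a, which lies in an intron of the heart myosin gene Myh6, read 6.16, 6.25 and 6.83 in heart and 1.63, 1.67 and 1.75 in hippocampus, a difference of 4.73 ± 0.18 (adjusted p = 5.79e-06). Mir134, of a large brain-expressed microRNA cluster, read 2.93, 2.95 and 3.05 in heart and 7.53, 7.35 and 7.57 in hippocampus. Mir9-1 and Mir9-2 differed by 3.57 and 3.31, Mir138-2 by 3.17, Mir128-1 by 3.098, Mir218-1 by 1.96 and Mir137 by 1.497, all towards hippocampus. The call of Mir137 did not hold under all 6 scalings and was lost without hippocampus array 2 (adjusted p = 0.0701). Mir145a and Mir143, a cluster of smooth muscle, were 2.36 and 1.39 higher in heart, the latter not under all 6 scalings. The muscle genes Mir1a-1 and Mir133a-1 were not called (0.69 and 1.39 towards heart), nor were the brain genes Mir124a-1, Mir124a-2 and Mir124a-3, whose signals were dim in both tissues.

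The same contrast was run on the transgenic arrays, normalized on their own. There 6229 probe sets were called (17.6%), 3198 higher in hippocampus (9.04%) and 3031 higher in heart (8.57%), and 5643 of the 6173 wild type calls were called in the same direction, which is 91.4% of the wild type calls and 90.6% of the transgenic calls. The sign was the same for 6170 of the 6173. The 3 exceptions were Per2 and 2 probe sets with no gene symbol. A test of the difference between both tissue contrasts on the 12 arrays called 107 of 35382 probe sets (0.302%, limma, adjusted p under 0.05 against no difference). Myl3, Hpca and Snap25 differed by 9.13 towards heart and by 8.93 and 9.09 towards hippocampus in the transgenic arrays, close to the wild type values.

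**Figure D5:**
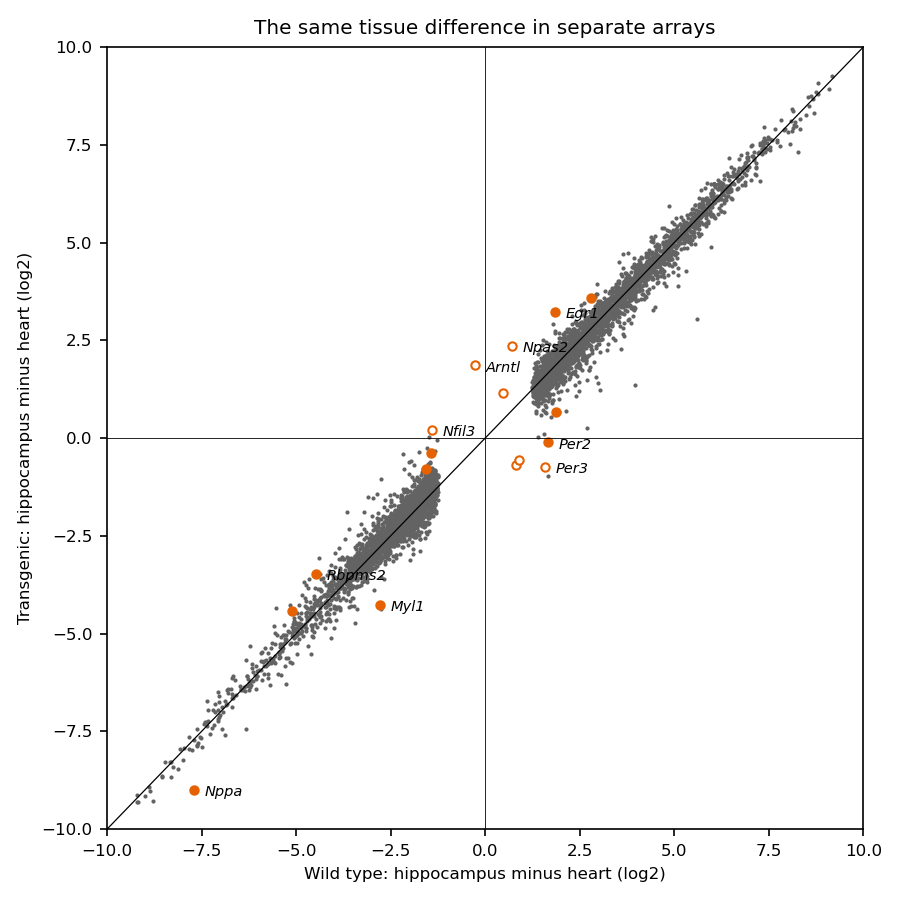
Difference between hippocampus and heart in the transgenic arrays (y axis, log2) against that in the wild type arrays (x axis), each set of 6 arrays quantile normalized on its own, with the line of equality. Grey points are the 6173 probe sets called in wild type. Orange points are genes of the lists, pairs and markers whose tissue difference passed the test between the genotypes, filled where called in wild type. The grey points follow the line, and Per2 lies below 0 on the y axis.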

How the data were processed

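The authors deposited 1 log2 value per probe set and array, made by RMA (background correction, normalization and probe summary), with R 2.10.0 named in the submitters' processing notes. Whether all 18 arrays were normalized together, the chip definition and any filter are not stated in the labels. Of 35382 probe sets, the platform annotation gives 1 symbol for 21153 (18781 genes), several for 1867 and none for 12362. All entered the tests, and a gene was represented by its single-symbol probe set with the highest mean.

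The deposited log2 values of the 6 wild type arrays were quantile normalized and fitted with limma 3.58.1 in R 4.3.3 (4 residual degrees of freedom, 2.27 more from the prior). Each difference was tested, two-sided, against a 2-fold change with treat, and Benjamini-Hochberg adjusted over all probe sets. The transgenic arrays were treated alike on their own. On simulated data (35382 probe sets, 50 altered per size) this called 15 at a log2 difference of 1.5, 41 at 2, 47 at 3 and 50 at 5, with 0 false calls. The altered probe sets were above the median signal and changed equally often in both directions, and all others had no true difference. With no shift between tissues built in, the simulation cannot judge the scaling, dim probe sets or false calls among differences just under 2-fold. Signals come with no read depth, and the number of arrays limits the precision.

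The text names the 15 largest differences in each direction, and up to 6 called members per direction in each of 38 lists (652 of 725 members measured). Members not called, or not called under all 6 scalings, are named where stated. Every gene of the 24 measured pairs is named, and some but not all of the tissue markers. The genes with a promoter motif were chosen after their values were seen. The lists, pairs and rules were chosen with earlier results of these data known. Alternatives were other scalings, samples in the fit, a replicate block, spread models, array weights, thresholds, filters and leaving out each array.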

Additional observations from a re-analysis of the deposited data

Results flagged for a closer look

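Among the genes of the lists, pairs, markers and largest differences, not all named above, 17 had a tissue difference that was not the same in both genotypes. This was by limma's test of the interaction on the 12 arrays of both tissues (adjusted p under 0.05 over all probe sets, where 0.302% passed). The values below are the transgenic minus the wild type difference, on the log2 scale, with n = 3 arrays per group.

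Clock genes made up 8 of the 17. The activators Arntl and Npas2 shifted towards hippocampus by 2.12 ± 0.22 (SE, adjusted p = 0.00835) and 1.65 ± 0.16 (adjusted p = 0.00835), as did the repressor of clock output Nfil3 (1.61, adjusted p = 0.0322). Per1, Per2 and Per3, repressors of the core clock, shifted towards heart (-1.51, -1.77 and -2.31), and so did the output factors Tef (-1.46) and Hlf (-1.24). In Arntl and Per3 the levels moved mainly in heart. Arntl averaged 6.09 in wild type and 3.60 in transgenic heart but 5.83 and 5.46 in hippocampus, and Per3 averaged 4.05 and 6.48 in heart but 5.63 and 5.75 in hippocampus, each genotype normalized on its own.

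The other 9 were not clock genes. Egr1, an immediate early gene, shifted towards hippocampus by 1.38 (adjusted p = 0.0446). Nppa and Myl1 shifted towards heart by -1.25 and -1.49, and the RNA-binding protein gene Rbpms2 towards hippocampus by 1.01. The shifts were 1.05 for Prdm16, 0.79 for Ckb, 0.78 for Gja1, 0.71 for Etfa and 0.69 for Hk1, all towards hippocampus.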

How the results depend on the processing

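The number of called probe sets (6173) stayed within 1.5 times under the other scalings, fits and filters tried, but its split did not. Hippocampus and heart held 7036 and 1386 calls with the values as deposited and 5017 and 1772 with arrays centred on reference genes, against 3147 and 3026. Other thresholds gave 3035 calls (1805 and 1230) against a 4-fold difference and 17329 (7670 and 9659) by the plain moderated test, and the heart count was 4645 against a 1.5-fold difference and 4555 by the plain test with an estimated 2-fold difference. Leaving out an array gave 5730 to 5983 calls, 2938 to 3083 towards hippocampus and 2792 to 2910 towards heart. The lists, pairs, markers and largest differences held 675 probe sets, not all named in the text, and 456 of them were called. Of these calls, 393 held under all 6 scalings, and 10 were lost without 1 of the arrays (Sox10, Mal, Cx3cr1, Cacna1c, Cox7b, Rps9, Psmc3, Mir143, Mir137 and Pygb). Under any alternative run, 0 of the 675 probe sets reversed a call. When the probe sets of a gene were averaged instead of taking the brightest, the glycolysis median moved from 0.03 to -0.13 and that of the neuronal cytoskeleton list from 4.80 to 4.50.

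With the replicate number as a block, 5876 probe sets were called, 3020 towards hippocampus. Deviations of same-numbered heart and hippocampus arrays correlated at 0.02 to 0.04, those of differently numbered arrays at -0.028 to -0.003. Each array thus correlated best with its own number. The labels do not say whether same-numbered arrays share an animal, and these correlations cannot settle it. The main fit has no pairing. Sets called in both genotypes numbered 5643, 7513 as deposited and 5749 with median centring. Of the called probe sets, 1768 higher in hippocampus and 1081 higher in heart had a dim signal in the other tissue, where the fold is least certain.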

Other observations

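On the quantile normalized scale more genes passed a large difference towards hippocampus than towards heart. Genes at least 5 log2 units higher numbered 378 in hippocampus and 150 in heart, at least 6 units higher 168 and 85, and at least 8 units higher 22 and 15. These are counts of probe set signals, 1 probe set per gene, and they were not repeated under the other scalings.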
